A study of Gossypium hirsutum with 6 samples.

Results

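This account follows 7 cotton genes that make, alter, break down or carry fatty acids: the cyclopropane fatty acid synthase gene CPA-FAS-2, the stearoyl-ACP desaturase gene sad1, the acyl-ACP thioesterase gene FatB1, the omega-3 desaturase gene 3FAD, the acyl-CoA oxidase gene ACX, the acyl-CoA-binding protein gene ACBP and the lipid transfer protein gene LTP1. They were taken by name: every probe set that the array's gene table pairs with exactly 1 gene, where RefSeq lists that name for the gene. The rule found 11 of the 24029 probe sets tested, for 7 of the 520 genes that such pairs name. FatB1 and LTP1 had 2 probe sets each and ACX had 3, while the other 4 genes had 1. The genes were chosen by their measured drought minus control differences on these 6 arrays, besides their names. The differences of these 11 probe sets are therefore given as a description, with no p-value. Where the text says which of them pass the whole-table threshold, under any setting, that too is description and no test of these genes.

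Leaf RNA of upland cotton (Gossypium hirsutum) was hybridised to Affymetrix cotton arrays, 1 per sample, for 3 drought and 3 control samples. All plants were of the cultivar Bikaneri Nerma and grew in field plots, 6 for each arm. Drought plants had their water stopped at peak flowering and were sampled 18 to 19 days later, at a soil moisture of 19.5%, which was 50% of that in control plots; control plants stayed irrigated. The sample titles speak of biological replicates without naming plots, so errors cover the spread between these samples, and 3 arrays per group limit the precision of every value.

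Plants build fatty acids in the plastid on acyl carrier protein (ACP). Desaturases put double bonds into the chain, thioesterases release it for export, and the enzymes outside the plastid then elongate it to waxes, insert it into membranes, modify it or oxidise it in peroxisomes. Acyl-CoA-binding proteins hold activated fatty acids in the cell, and lipid transfer proteins are small secreted proteins that bind lipids and are known from the leaf surface. In cotton, cyclopropane fatty acids are known mainly from seed, root and stem lipids.

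The deposited values are on a log2 scale and each probe set is centred on its own median over the 6 arrays. A value of 1 is therefore a signal 2-fold above that probe set's median, and levels of different genes cannot be compared. With 3 arrays on each side, the centring also makes the innermost drought and control values mirror each other when the groups do not overlap. In bulk leaf RNA, a smaller share of the cells that express a gene and less transcript per cell cannot be told apart.

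The synthase of cyclopropane fatty acids stood apart from the other 6 genes. CPA-FAS-2 (LOC107936133, probe set Ghi.8159.1.S1_s_at), whose enzyme adds a methylene bridge across the double bond of an oleoyl chain, had log2 values of -4.19, -3.74 and -3.55 in drought arrays, against 3.60, 3.55 and 3.56 in control arrays. All drought arrays lay below all control arrays, with an empty interval of 7.09 log2 units between the groups. The mean was -3.83 ± 0.33 in drought and 3.57 ± 0.031 in control (SD, n = 3 each), a difference of -7.40 (SE 0.15, from limma's fit over all tested probe sets) or 168-fold lower signal. Only 15 of the 24029 tested probe sets had a more negative difference. The suffix _s_at of this probe set marks probes shared by more than 1 transcript, so which transcripts it reads was not tested. Drought arrays also spread more widely than control arrays for this probe set, with replicate 1 the lowest of them. After quantile normalization the difference was -6.11.

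The step that makes oleic acid, the substrate of the cyclopropane enzyme, was represented by sad1 (LOC107914399, probe set GhiAffx.1589.466.S1_at), which desaturates stearoyl-ACP to oleoyl-ACP. Its values were -0.87, -0.99 and -0.88 in drought arrays, against 0.90, 0.87 and 1.03 in control arrays. The groups were separated by 1.73 log2 units, and the arrays of each group lay within a much narrower range than that. The mean was -0.91 ± 0.070 in drought and 0.93 ± 0.086 in control (SD, n = 3 each), a difference of -1.84 (SE 0.077, 3.59-fold lower).

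FatB1 (LOC107932873), a thioesterase gene also named PATE, whose enzyme releases mainly palmitic acid and other saturated fatty acids from ACP, gave opposed readings on its 2 probe sets. On GhiAffx.7633.1.S1_s_at the values were -1.38, -1.50 and -1.43 in drought arrays, against 1.38, 1.43 and 1.50 in control arrays. On Ghi.8637.1.S1_s_at they were 0.31, 0.086 and 0.16 in drought arrays, against -0.086, -0.13 and -0.14 in control arrays. Both probe sets separated the groups, the first with drought below and the second with drought above. The differences were -2.87 (SE 0.073, 7.32-fold lower) and 0.30 (SE 0.079, 1.23-fold higher), 3.17 log2 units apart. Of the 122 genes with several probe sets in the array's gene table, 4 had probe sets further apart than these, and the median distance between a gene's lowest and highest probe set was 0.42. RefSeq lists 3 transcripts for the FatB1 gene, and both probe sets carry the shared-probe suffix _s_at. Which transcripts each one reads was not tested. With spike-in centring, in which each array is set to its median hybridisation spike-in signal, the higher reading shrank to 0.054, while the lower one was then -3.12.

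3FAD (LOC107899542, also named FAD78-1A, probe set Ghi.10613.1.S1_at) encodes an omega-3 desaturase, an enzyme that adds the last double bond of alpha-linolenic acid, the main fatty acid of leaf chloroplast membranes. Its values were -0.098, -0.50 and -0.59 in drought arrays, against 0.098, 0.38 and 0.34 in control arrays. The groups did not overlap, but the first replicate of each lay within 0.197 log2 units of the other. The mean was -0.40 ± 0.26 in drought and 0.27 ± 0.15 in control (SD, n = 3 each), a difference of -0.67 (SE 0.14, 1.59-fold lower).

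**Figure D1:**
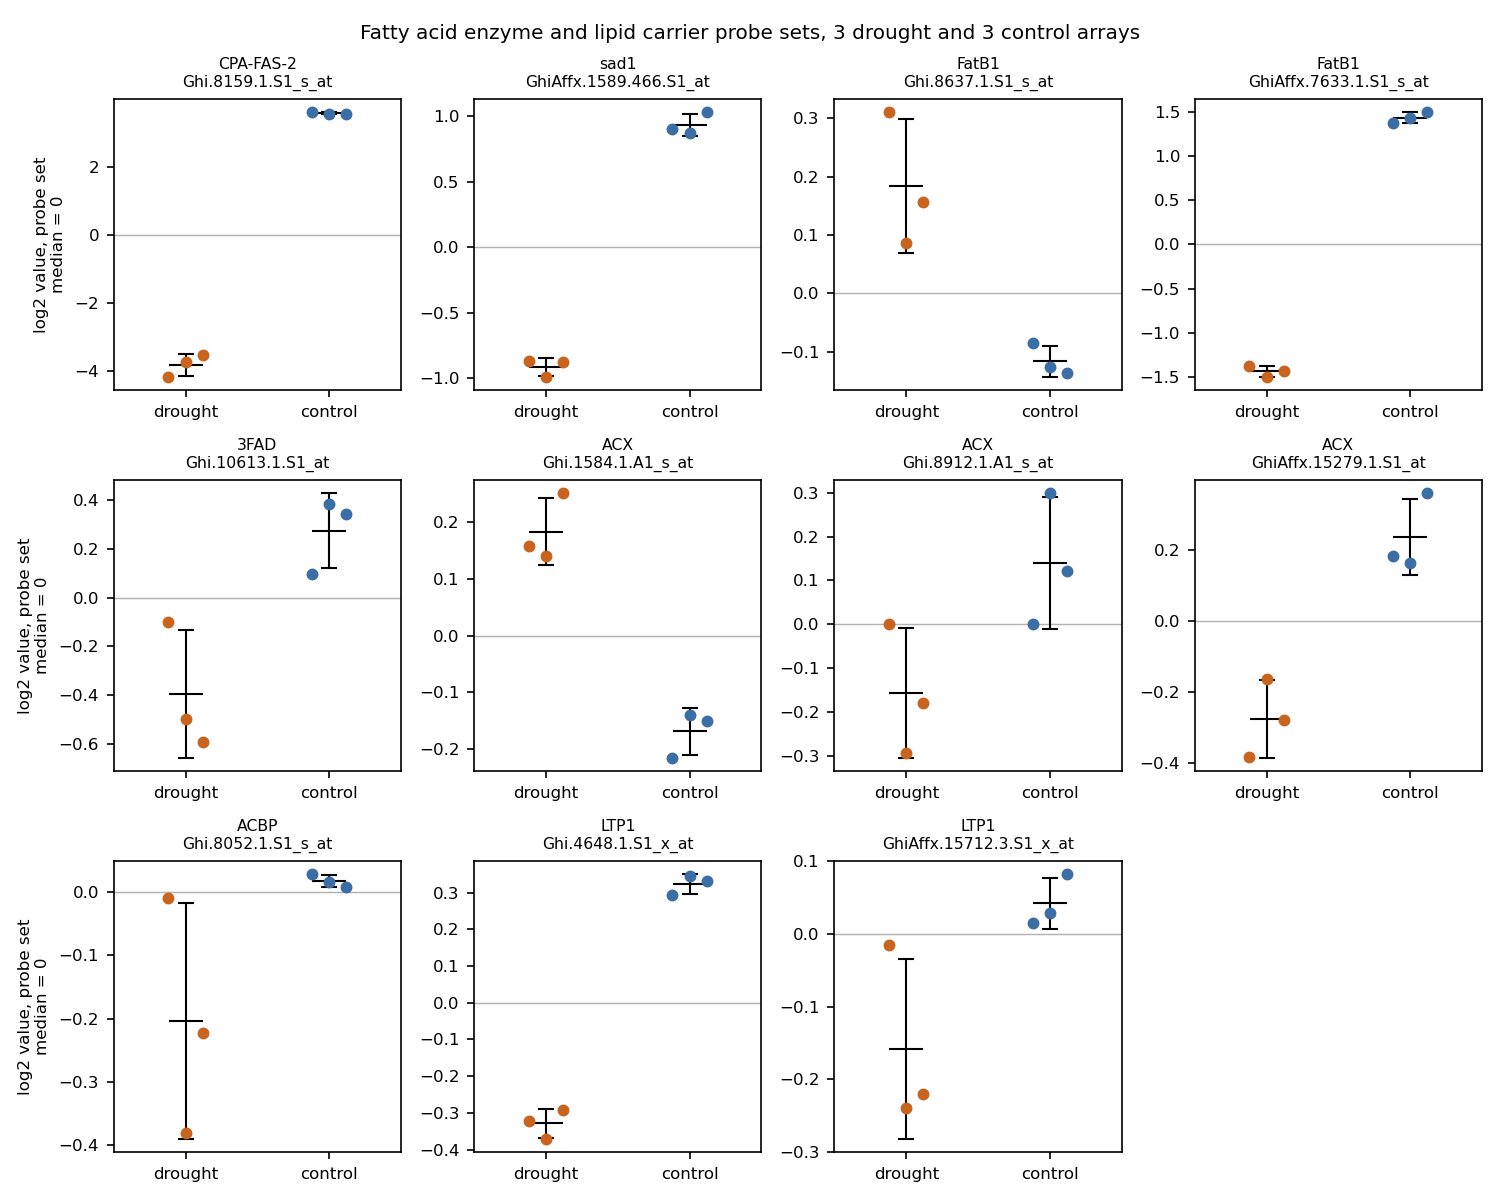
Log2 value (probe set median at 0) of each of the 11 probe sets in 3 drought arrays, on the left of every panel, and 3 control arrays, on the right; within a group, points run from replicate 1 to replicate 3, bars show the mean and SD, and the vertical scale differs between panels. CPA-FAS-2 spans from -4.19 to 3.60, while both LTP1 and all ACX panels stay within 0.4 of 0, and drought points lie above control points only for FatB1 on Ghi.8637.1.S1_s_at and ACX on Ghi.1584.1.A1_s_at.

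Breakdown was represented by ACX (LOC107886061), an acyl-CoA oxidase gene whose enzyme starts fatty acid oxidation in peroxisomes and, in Arabidopsis, also serves jasmonic acid synthesis. Its sense-design probe set GhiAffx.15279.1.S1_at had values of -0.38, -0.16 and -0.28 in drought arrays, against 0.18, 0.16 and 0.36 in control arrays, a difference of -0.51 (SE 0.089, 1.42-fold lower). The antisense-design probe set Ghi.8912.1.A1_s_at gave 0.0006, -0.29 and -0.18 in drought arrays, against -0.0006, 0.30 and 0.12 in control arrays. Here drought replicate 1 and control replicate 1 overlapped, and the difference was -0.30 (SE 0.11). The other antisense-design probe set, Ghi.1584.1.A1_s_at, went the other way, with 0.16, 0.14 and 0.25 in drought arrays, against -0.22, -0.14 and -0.15 in control arrays, and a difference of 0.35 (SE 0.070, 1.27-fold higher). The 3 probe sets of ACX thus spanned 0.86 log2 units, and their antisense design leaves the strand behind the last 2 not shown. With spike-in centring the higher reading was 0.10.

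The carriers showed the smallest differences of the 7 genes, apart from 1 LTP1 probe set. ACBP (LOC107963602, probe set Ghi.8052.1.S1_s_at) had values of -0.0089, -0.38 and -0.22 in drought arrays, against 0.028, 0.016 and 0.0089 in control arrays. Control arrays lay close together, with an SD of 0.010 (n = 3), whereas drought arrays had an SD of 0.19 (n = 3), and drought replicate 1 was 0.018 below the lowest control array. The difference of -0.22 (SE 0.098, 1.17-fold lower) did not pass the adjusted threshold that is applied to the whole table. LTP1 (LOC107896815, also listed as FSLTP2, FSLTP3 and NSLTP1) had values of -0.32, -0.37 and -0.29 in drought arrays, against 0.29, 0.35 and 0.33 in control arrays, on probe set Ghi.4648.1.S1_x_at. The difference was -0.65 (SE 0.066, 1.57-fold lower), with a gap of 0.59 between the groups. On its other probe set, GhiAffx.15712.3.S1_x_at, the values were -0.015, -0.24 and -0.22 in drought arrays, against 0.015, 0.030 and 0.082 in control arrays. That difference of -0.20 (SE 0.082) did not pass either, and the groups were 0.031 apart.

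Across the 11 probe sets, 9 had a lower mean in drought, where 36.4% of all tested probe sets did, and 2 a higher one; the median difference was -0.51. At a limma adjusted p of 0.05, with Benjamini-Hochberg adjustment over all tested probe sets, 7 were lower, 2 higher and 2 did not pass. Of all tested probe sets 55.7% passed, 20.4% lower and 35.3% higher in drought, and the median difference was 0.12. Drought arrays lay wholly below control arrays for 8 of the 11 and wholly above for 2, where 22.7% and 40.1% of all tested probe sets did so. At least 2-fold lower were 3 of the 11, CPA-FAS-2, FatB1 on GhiAffx.7633.1.S1_s_at and sad1, against 8.63% of the table. None was 2-fold higher, against 6.63%. The members belong to 324 probe sets whose gene has an older name in RefSeq. Of these 324, 176 had a lower mean in drought, 127 passed as lower and 107 as higher. Drought arrays lay wholly below control arrays for 137 of them and wholly above for 115. At least 2-fold lower were 67 of the 324, and 28 were at least 2-fold higher. The choice of genes used this contrast, so nothing is read from these counts. ACBP and the second LTP1 probe set also passed as lower without drought replicate 1 (-0.32 and -0.27), with median centring of the arrays (-0.32 and -0.30), with quantile normalization (-0.32 and -0.31) and with reporter centring (-0.28 and -0.26), so that 9 were lower each time. Without drought replicate 2, ACBP was at -0.13 and did not pass. ACX on Ghi.8912.1.A1_s_at no longer passed without control replicate 2 or 3, or without drought replicate 2 or 3. Nor did it pass with the replicate number as a block. With spike-in centring 9 passed as lower and 0 as higher.

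**Figure D2:**
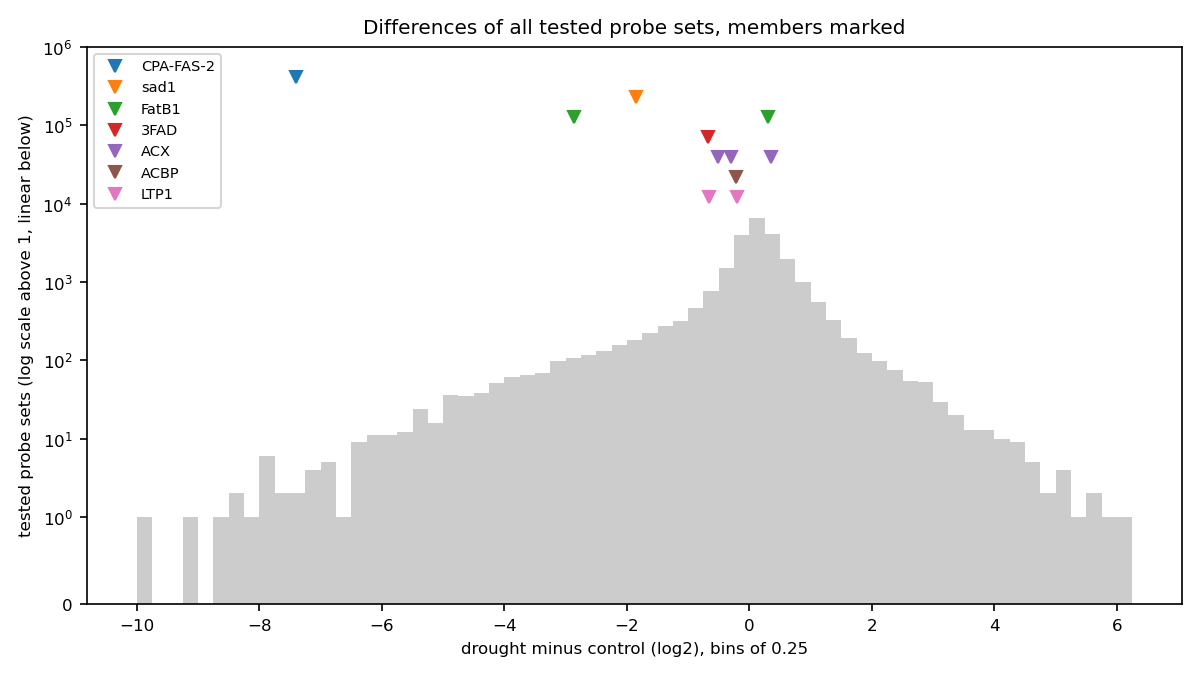
Number of tested probe sets (vertical axis, log scale above 1) by log2 difference of drought minus control (horizontal axis, bins of 0.25), with a triangle for each of the 11 probe sets, 1 row per gene; the height of the triangles has no meaning. CPA-FAS-2 at -7.40 lies in the thin left tail, FatB1 appears at -2.87 and 0.30, and all of 3FAD, ACX, ACBP and LTP1 lie within 0.7 of 0.

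Drought replicate 1 was the array in which several of these genes lay nearest to control. It was above the drought mean for 8 of the 11 probe sets, with a median deviation of 0.060, and over all tested probe sets its median deviation was 0.051. Among these 8 was FatB1 on Ghi.8637.1.S1_s_at, which was higher in drought, so there drought replicate 1 (0.31) lay furthest from control. Among the 3FAD, ACBP, ACX (Ghi.8912.1.A1_s_at) and LTP1 (GhiAffx.15712.3.S1_x_at) probe sets it was the highest drought value each time. For CPA-FAS-2 it was the lowest. The SD of the 11 probe sets ran from 0.040 to 0.33 in drought, with a median of 0.115, and from 0.010 to 0.15 in control, with a median of 0.041; the medians over all tested probe sets were 0.113 in drought and 0.083 in control (n = 3 each).

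Probe sets of this array are named by sequence cluster, and 2 of the clusters hold probe sets other than those described so far. The sad1 probe set belongs to a cluster of 65, of which 6 are paired with 1 gene each, for 5 genes in all. Its 64 cluster partners had differences from -6.13 to 2.39, with a median of 0.066; 14 were lower, 27 higher and 23 did not pass, and 4 had a more negative difference than sad1. The antisense-design probe set with the same cluster number, GhiAffx.1589.466.A1_s_at, which has no gene in the table, had values of -0.45, -0.25 and -0.35 in drought arrays, against 0.62, 0.25 and 0.29 in control arrays. It was lower by a smaller amount (-0.74, SE 0.11, limma adjusted p = 0.00055). The cluster therefore does not show by itself that the sad1 reading belongs to that gene.

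The Ghi.4648 cluster of LTP1 holds 2 further probe sets. Ghi.4648.2.A1_s_at, paired with LOC107896372, a gene with no older name in the table, had values of -3.66, -4.08 and -3.98 in drought arrays, against 4.12, 3.66 and 4.12 in control arrays. Its difference of -7.88 (SE 0.15, limma adjusted p = 2.28e-09) was more negative than that of CPA-FAS-2. Ghi.4648.3.A1_x_at, paired with the alpha-tubulin gene TubA4 (LOC107905189), was lower by 1.11 (difference -1.11, SE 0.12, limma adjusted p = 4.91e-05). Readings from 1 cluster thus covered -7.88 to -0.65, on probe sets assigned to 3 genes: LTP1, an alpha-tubulin gene and the unnamed LOC107896372. Whether LOC107896372 encodes a lipid carrier was not tested. The suffix _x_at of both LTP1 probe sets marks probes that may bind unrelated transcripts. These cluster partners were looked at after the LTP1 and sad1 values were known.

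**Figure D3:**
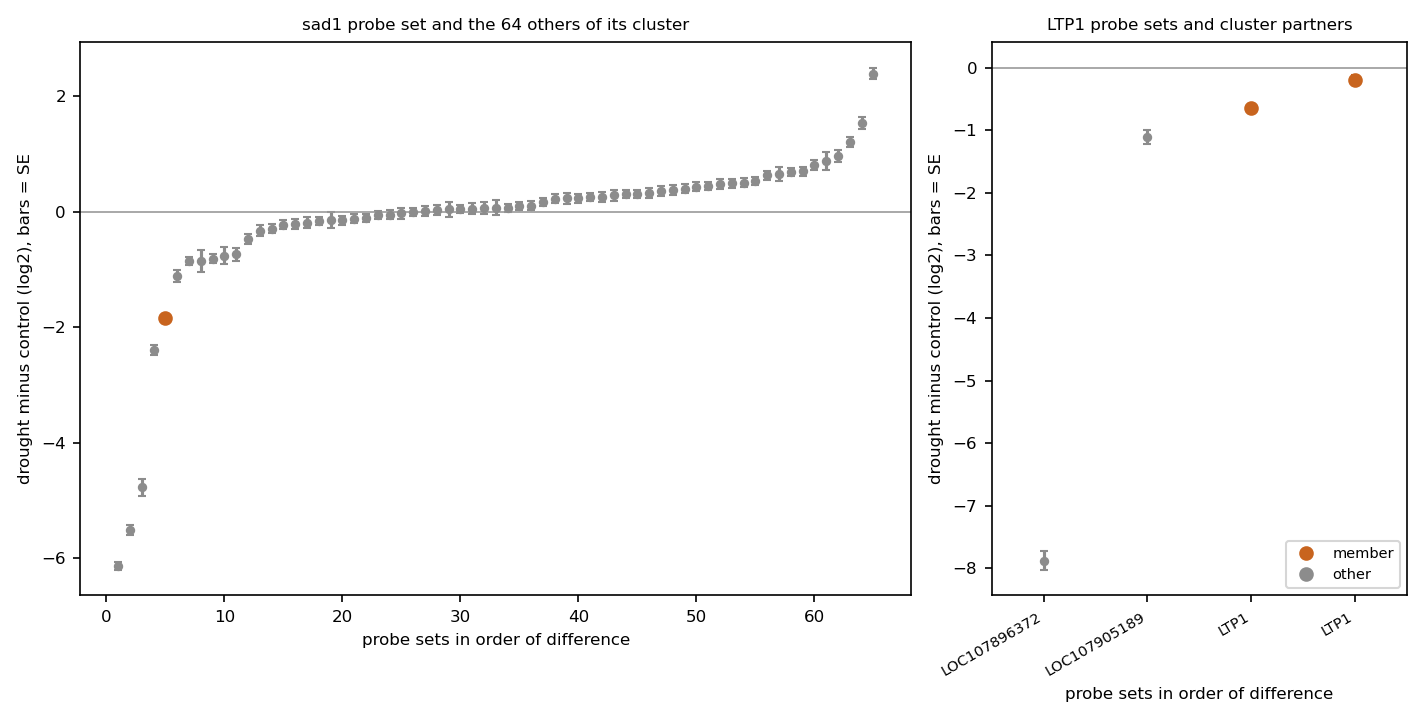
Log2 difference of drought minus control (vertical axis, bars are the SE of the fit) for sad1 and its 64 cluster partners on the left, and for both LTP1 probe sets and the partners of the Ghi.4648 cluster on the right, in order of difference along the horizontal axis, with sad1 and LTP1 in orange. On the left the sad1 point at -1.84 has 4 points below it in a range from -6.13 to 2.39, and on the right the LTP1 points at -0.65 and -0.20 lie far above LOC107896372 at -7.88.

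The other lipid genes of the array, found by name patterns, were 18 probe sets of 14 genes. The patterns were chosen with earlier results of these data known. The counts and adjusted p-values of these probe sets are therefore no independent test. Of the 18, 8 fell, 4 rose and 6 missed the threshold; their median was -0.22, where 20.4% of the table was lower and 35.3% higher and the median was 0.12. No further carrier gene was among them.

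Within the family of cyclopropane synthases the 3 named genes differed. CPA-FAS-1 (Ghi.8158.1.S1_s_at) had values of -0.26, 0.15 and 0.011 in drought arrays, against -0.011, 0.065 and -0.13 in control arrays, and a difference of -0.0076 (SE 0.11, limma adjusted p = 0.96). Its groups overlapped. CPA-FAS-3 (Ghi.8160.1.S1_at) had values of -0.26, -0.40 and -0.31 in drought arrays, against 0.33, 0.26 and 0.34 in control arrays, and fell by 0.63 (difference -0.63, SE 0.071, limma adjusted p = 8.52e-05). CPA-FAS-2 was thus 7.40 log2 units lower (difference -7.40) while its relatives differed by -0.0076 and -0.63; the difference between them was not tested, since CPA-FAS-2 was chosen with its value known.

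Upstream of sad1, the condensing enzymes of the plastid pathway split. KASIII, which starts the chain, fell (difference -0.70, SE 0.070, limma adjusted p = 3.81e-05). KAS2-1, a KASII gene whose enzyme makes the stearoyl-ACP that sad1 uses, rose on both probe sets (0.46, SE 0.071, limma adjusted p = 0.00059, and 0.42, SE 0.094, limma adjusted p = 0.0048). Neither KAS2-1 reading passed with spike-in centring, where they were 0.21 and 0.17.

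Ketoacyl-CoA synthases elongate fatty acids to the very long chains of waxes and other surface lipids. Of their 7 probe sets, for 4 genes, 3 fell and none rose. Of all tested probe sets 20.4% were lower and 35.3% higher. Of the 324 with an older gene name, 127 were lower and 107 higher. KCS45, also named FDH, fell by 0.82 (difference -0.82, SE 0.078, limma adjusted p = 3.00e-05). KCS38 fell on Ghi.9531.1.S1_s_at (difference -0.98, SE 0.086, limma adjusted p = 1.72e-05) and Ghi.9938.1.S1_x_at (difference -0.56, SE 0.070, limma adjusted p = 0.00017), whereas its other 2 probe sets gave 0.13 and 0.12 and did not pass. KCS10 (0.062) and KCS12 (-0.21) did not pass. KCS12 was -0.049 without control replicate 3, -0.33 without control replicate 2 and -0.11 without drought replicate 1, and it passed with spike-in centring (-0.46).

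In fatty acid oxidation, MFP, a multifunctional protein gene of the same peroxisomal pathway as ACX, rose by 0.64 (SE 0.14, limma adjusted p = 0.0043), while the lipoxygenase gene Lox1 had a difference of -0.22 (SE 0.16, limma adjusted p = 0.26). Lox1 values were -0.63, -0.042 and 0.028 in drought arrays, against 0.013, -0.013 and 0.029 in control arrays, so that drought replicate 1 alone lay apart. Without that array the difference was -0.016, and with spike-in centring, which kept it, Lox1 passed as lower (-0.47).

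At least 2-fold differences outside the 7 genes were found in sterol and phospholipid enzymes. All 3 sterol methyltransferase genes, which add the side-chain methyl groups of plant sterols, fell. Of all tested probe sets 20.4% were lower and 8.63% passed as at least 2-fold lower. Of the 324 with an older gene name, 127 were lower and 67 passed as at least 2-fold lower. The list that holds these genes was chosen with earlier results of these data known. SMT2-2 had values of -1.83, -1.59 and -2.50 in drought arrays, against 1.66, 1.72 and 1.59 in control arrays (difference -3.63, SE 0.20, limma adjusted p = 8.54e-07). SMT1 (difference -1.23, SE 0.071, limma adjusted p = 1.13e-06) and SMT2-1 (difference -1.02, SE 0.082, limma adjusted p = 1.00e-05) fell less. The phospholipase D delta gene pldd, whose enzyme cleaves membrane phospholipids, had values of 0.57, 0.56 and 0.52 in drought arrays, against -0.52, -0.58 and -0.52 in control arrays. It rose by 1.09 (SE 0.066, limma adjusted p = 1.49e-06).

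**Figure D4:**
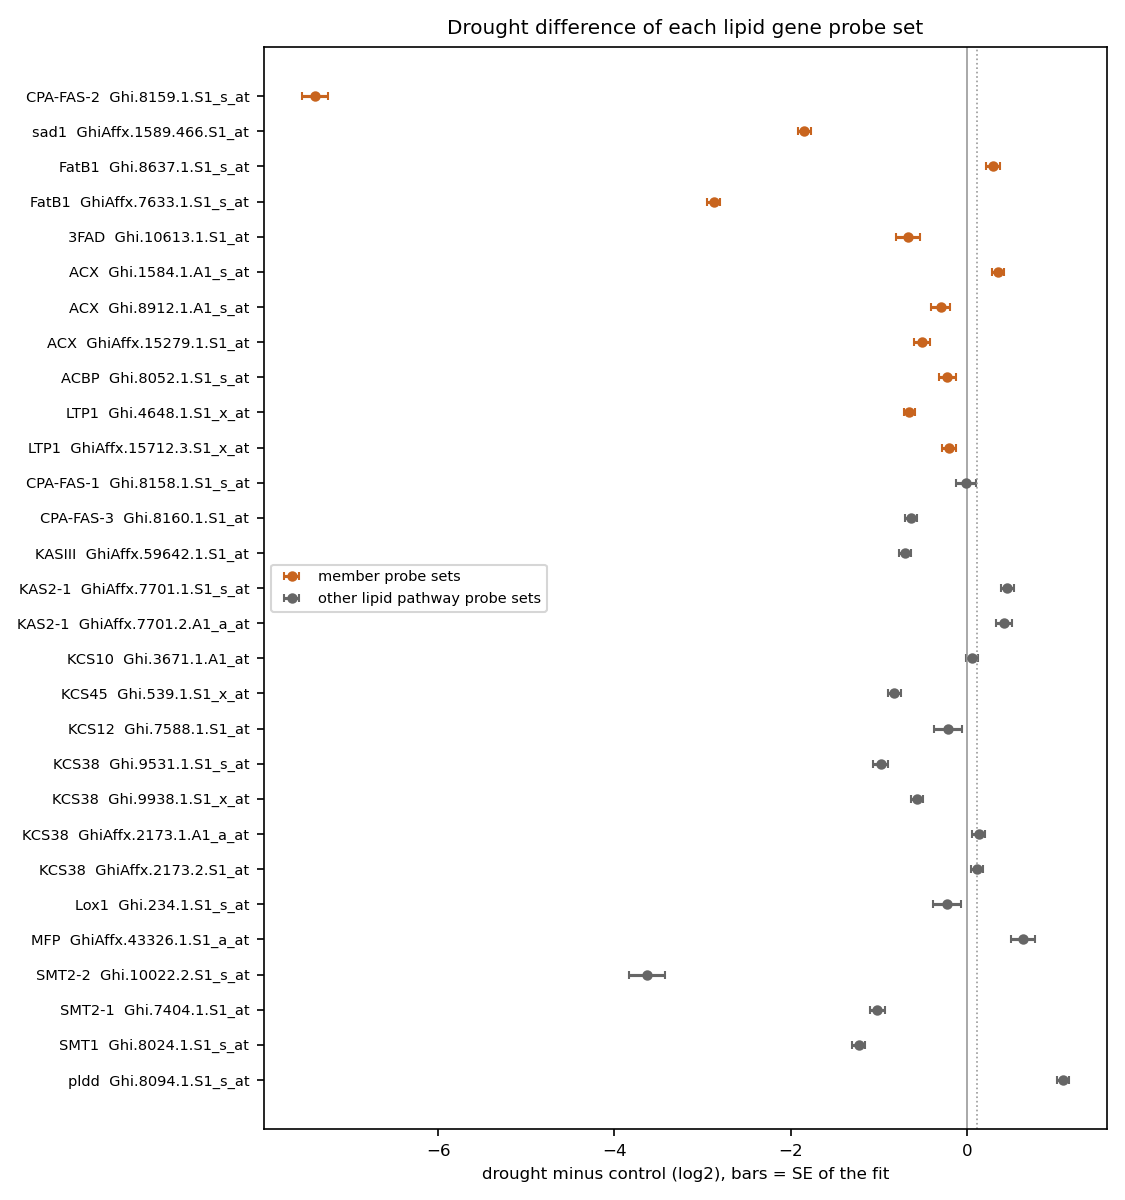
Log2 difference of drought minus control (horizontal axis, bars are the SE of the fit) for the 11 probe sets of the 7 genes in orange and for the 18 other lipid pathway probe sets in grey; the solid line is 0 and the dotted line the median of all tested probe sets, 0.12. CPA-FAS-2 at -7.40 lies far left of CPA-FAS-1 at -0.0076 and CPA-FAS-3 at -0.63, and SMT2-2 at -3.63 and pldd at 1.09 are the extremes of the grey points.

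Likeness was measured as the root mean square distance over the 6 arrays between each gene's probe set of largest difference and the other named probe sets, which share their arrays and centring. Nearest to CPA-FAS-2 was PGIPL at 0.36 log2 units, with bHLH110D (1.20) and FLA6 (1.27) further off. Nearest to sad1 were HOX3 (0.062), DHAR1 (0.11) and ATub3 (0.11), and to FatB1 on GhiAffx.7633.1.S1_s_at fla-11 (0.094), POX10 (0.10) and E6 (0.14), an abundant fibre transcript. LTP1 on Ghi.4648.1.S1_x_at was nearest to KASIII (0.038), CPA-FAS-3 (0.046) and GalT1 (0.062). The ACX sense-design probe set was nearest to KCS38 on Ghi.9938.1.S1_x_at (0.090), GLU (0.10) and GHMYB10 (0.11). For 3FAD they were Aux3 (0.11), annexin (0.13) and CCR1 (0.13). ACBP was nearest to ARF1 (0.042), psmB1 (0.048) and LTP1 on GhiAffx.15712.3.S1_x_at (0.065). Apart from the nearest neighbours of CPA-FAS-2, these distances were 0.14 or less. With centred values in 2 groups, the distance largely reflects how close 2 differences are, as for sad1 (-1.84) and HOX3 (-1.82). Shared regulation was not tested.

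Some markers of other tissues differed between the groups in the same arrays. Of 4 fibre-associated genes 3 were at least 2-fold lower in drought, E6 among them, and Fb2 was higher. Of all tested probe sets 8.63% passed as at least 2-fold lower, 20.4% as lower and 35.3% as higher. Of the 324 with an older gene name, from which these markers were matched, 67 passed as at least 2-fold lower, 127 as lower and 107 as higher. The sum of the centred log2 values of the 4 fibre-associated genes was -6.14 to -5.10 in drought arrays and 5.40 to 5.50 in control arrays. Of 5 flower MADS-box genes 2 were at least 2-fold lower and 3 did not pass. Their differences ran from -4.21 to 0.15, with a median of -0.034, and their sums were -3.44 to -2.40 in drought and 2.34 to 3.40 in control. Of 9 probe sets matched by seed patterns, 2 were higher, 1 was lower and 6 did not pass. The lower one was the S-adenosylmethionine synthase gene MAT, which the patterns took in by its name. The 9 differences ran from -2.17 (MAT) to 4.29, with a median of 0.093. Their sums, which include MAT, were 1.60 to 1.91 in drought and -2.09 to -1.10 in control. The only leaf marker found by its pattern, the Rubisco activase gene RCA1, was 0.60 higher in drought, with values of 0.27 to 0.32 in drought and -0.36 to -0.27 in control. Centred values hold no absolute level, so the labelled tissue could not be checked against its markers, and the part of other tissues in the lower CPA-FAS-2, FatB1, sad1 and SMT2-2 readings was not tested.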

How the data were processed

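The authors deposited log2 values; RMA is the tool that the submitters' processing notes name, with no version. The log2 scale is taken from RMA and the range of the values. Probe set medians over the 6 arrays are all 0 (largest absolute median 5e-07), so the authors' values were centred before deposit, and the direction (higher value for more signal) is read from RMA. The sources used here give no method for the centring. Array medians of the tested probe sets were 0.029 to 0.082 in drought and -0.047 to -0.037 in control. Of 24132 probe sets, 103 Affymetrix controls were kept out, while 52 reporter probe sets stayed in. Names come from the platform's gene table (697 probe sets with 1 gene, 46 with several, none of the latter naming a member) and from RefSeq (assembly Gossypium_hirsutum_v2.1), for names alone; no array build is named, so positions are left out. The comparison of drought with control used limma 3.58.1 (lmFit, eBayes) under R 4.3.3, over all 24029 probe sets, two-sided, without a block, adjusted by Benjamini-Hochberg, with a threshold of 0.05. The fit was tested on simulated data. Alternatives were other array scalings, a replicate block, robust eBayes, leaving out shared-probe suffixes and leaving out each array. The members, the lists and the alternatives were chosen with earlier results of these data known. Named were all member probe sets, list probe sets that passed with at least 1 log2 unit, and the 3 nearest named probe sets of each gene; the other list probe sets named here, and the cluster partners, were chosen after their values were seen.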

Additional observations from a re-analysis of the deposited data

Results flagged for a closer look

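Outside the probe sets tested, the 27 hybridisation spike-ins had array medians that averaged 0.247 log2 units more in drought than in control (0.012 to 0.25 in drought arrays, -0.14 to -0.012 in control arrays), a difference in control material that measures no leaf transcript. The 52 reporter probe sets, also control material, were among the probe sets tested. Their array medians averaged 0.056 higher in drought (0.0090 to 0.033 in drought arrays, -0.041 to -0.018 in control arrays). Of these 52, 9 passed the adjusted threshold, where 55.7% of all tested probe sets did. With each array centred on its spike-in median, the difference of FatB1 on Ghi.8637.1.S1_s_at was 0.054 in place of 0.30, while those of ACBP and LTP1 on GhiAffx.15712.3.S1_x_at were -0.47 in place of -0.22 and -0.45 in place of -0.20. With reporter centring ACBP was -0.28 and that LTP1 probe set -0.26.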

How the results depend on the processing

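The direction of all 11 member differences held under each alternative that was run on them: 9 were below 0 and 2 above. With spike-in centring 0 members passed as higher, 2 list probe sets rose instead of 4 and 10 fell instead of 8, KCS12 (-0.46) and Lox1 (-0.47) being added (8485 higher in the whole table became 3989, and 4895 lower became 7255), and KCS10 (-0.18), KCS38 on GhiAffx.2173.1.A1_a_at (-0.11) and on GhiAffx.2173.2.S1_at (-0.13) turned negative, none of which passed to begin with; the cause was not tested. That centring adds 1 offset per array to all probe sets, and limma's prior degrees of freedom were then 56.7, against 4.24 as deposited, so its p-values rest mostly on spread pooled over probe sets. KCS10 was also -0.033 with median centring of the arrays and -0.041 with quantile normalization. CPA-FAS-1 ran from -0.10 to 0.11 over the fits that left out an array, and was positive without control replicate 2 (0.037) and without drought replicate 1 (0.11). Without probe sets of shared-probe suffix, 3 of the 11 members are left (sad1, 3FAD and ACX on GhiAffx.15279.1.S1_at, all lower), with no reading of CPA-FAS-2, FatB1, ACBP or LTP1. Of the 18 list probe sets 6 are left, of which 0 rose and 3 fell, and 4426 in all were higher and 2247 lower. The fits that left out an array gave 7409 to 8275 higher and 4465 to 5089 lower probe sets, 6 to 9 members lower and 2 higher, and 8 list probe sets lower and 4 higher. Of all called probe sets, 63.4% were higher as deposited, 53.1% with median centring, 50.9% with quantile normalization and 35.5% with the spike-in centring. Same-numbered drought and control arrays are not known to share a plot; their deviations correlated at 0.033, 0.045 and 0.074, each the highest for its array but under 0.1. With the replicate number as a block, 8444 probe sets were higher and 4800 lower, 6 members lower instead of 7, and 8 list probe sets lower and 4 higher. The member that no longer passed was ACX on Ghi.8912.1.A1_s_at.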

Other observations

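Cyclopropane synthases and sterol methyltransferases both take their methyl group from S-adenosylmethionine. The gene MAT (LOC107910531, also named SAMS, probe set Ghi.9616.1.S1_s_at), which encodes an S-adenosylmethionine synthase, had log2 values of -1.01, -1.23 and -1.18 in drought arrays, against 1.05, 1.01 and 1.04 in control arrays. All drought arrays lay below all control arrays, and the gene fell by 2.17 (difference -2.17, SE 0.079, 4.51-fold lower, limma adjusted p = 5.96e-08). Its difference lay between -2.24 and -2.13 when 1 array was left out, and was -1.76 after quantile normalization. It was looked up after the CPA-FAS-2 and SMT2-2 values were known, and no relation between these genes was tested.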
